A study of Mus musculus with 13 samples.

Results

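The 9 genes described here act at the surface of the vessel wall in blood clotting, in its control and in clot removal: *Vwf*, *F8*, *F3*, *Tfpi*, *Thbd*, *Procr*, *F2r*, *Plat* and *Pf4*. They were chosen by name, and the estimated counts and TPM values (transcript abundance corrected for length and depth) of their transcripts were summed per gene, out of 36109 genes listed. All 9 were detected in every library and passed the filter on low counts in both tissues.

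Clotting starts when tissue factor meets coagulation factors of the blood, runs through thrombin, and is held in check on intact endothelium by surface proteins that bind thrombin or block tissue factor. Endothelial cells (ECs) are the best known source of von Willebrand factor, thrombomodulin and the endothelial protein C receptor, and they release the plasminogen activator that starts clot removal. Platelet factor 4, in contrast, is packed in platelet granules by megakaryocytes, and its transcript is also known from some myeloid cells.

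The study compared mice with a deletion of *Hmox2*, the constitutive heme oxygenase, in all cells (*Hmox2*-/-) with their wildtype littermates (*Hmox2*+/+), both kept in room air. RNA of aortic ECs came from 3 *Hmox2*+/+ and 3 *Hmox2*-/- samples and RNA of whole heart from 4 *Hmox2*+/+ and 3 *Hmox2*-/- samples. EC RNA was collected by flushing the aortic lumen with a lysis reagent, without a cell sort, after blood had been rinsed out with buffer, and heart RNA came from pulverised frozen tissue with another kit, so tissue and RNA kit cannot be told apart. The sequenced mice were young per the study, and their sex is not given. It is not stated which EC and heart libraries came from 1 animal. The tests set differences against the spread between these samples, and those across tissues treated EC and heart libraries as independent.

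The EC libraries held 26067147 to 31138642 estimated counts and the heart libraries 29815090 to 31619776, except heart *Hmox2*+/+ 1 with 7268626. *Hmox2* itself ranged from 63.9 to 76.2 CPM (counts scaled to library size by the trimmed mean of M-values) in wildtype ECs and 12.6 to 14.7 in *Hmox2*-/- ECs, and 37.3 to 42.5 against 7.53 to 8.90 CPM in heart, although 73.4% of its 31-base words also occur in other genes. *Ddx3y*, a marker of male tissue on the Y chromosome, was near 1 CPM (1.03 and 0.920) in EC *Hmox2*-/- 2 and 3 and 61.7 to 86.4 CPM in the remaining EC libraries, so sex follows genotype in part among the ECs. The mitochondrial genome gave 37.6 to 44.3% of gene counts in heart samples of *Hmox2*+/+ mice, against 22.5 to 27.2% without *Hmox2*. Of 31-base words in the 9 genes, at most 1.18% (*Vwf*) were shared with another gene, so nearly all their reads can be assigned to 1 gene.

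The sequence before the transcription start is shown for the genes whose genotype difference was tested as unlike in ECs and heart (*F3*, *Tfpi*, *F2r*). It is also shown for *Procr*, which shares a marked motif with *F3* and *F2r*, and for the platelet gene *Pf4*. Each run is the 250 bases upstream of a RefSeq start in GRCm38.p6, written 5′ to 3′ on the strand of the gene. Capitals mark matches, on either strand, to the letters of 4 short binding motifs. For AP-1 the letters searched were TGANTCA. For ETS factors they were AGGAAG. For factors of the GATA family the search used GATAA. For the core promoter box that binds the basal machinery it used TATAA.
F3 (chr3:121723287-121723536, plus strand): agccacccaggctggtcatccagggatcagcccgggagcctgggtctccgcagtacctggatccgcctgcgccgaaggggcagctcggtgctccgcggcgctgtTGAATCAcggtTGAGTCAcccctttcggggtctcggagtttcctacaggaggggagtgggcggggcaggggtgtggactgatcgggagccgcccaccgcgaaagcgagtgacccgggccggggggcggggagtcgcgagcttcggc
Tfpi, upstream start (chr2:84476760-84477009, minus strand): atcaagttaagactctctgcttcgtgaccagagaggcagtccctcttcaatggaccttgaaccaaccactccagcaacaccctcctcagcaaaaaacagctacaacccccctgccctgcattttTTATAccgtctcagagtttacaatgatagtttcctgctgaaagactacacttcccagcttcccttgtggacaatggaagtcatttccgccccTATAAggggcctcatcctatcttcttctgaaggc
Tfpi, downstream start (chr2:84474175-84474424, minus strand): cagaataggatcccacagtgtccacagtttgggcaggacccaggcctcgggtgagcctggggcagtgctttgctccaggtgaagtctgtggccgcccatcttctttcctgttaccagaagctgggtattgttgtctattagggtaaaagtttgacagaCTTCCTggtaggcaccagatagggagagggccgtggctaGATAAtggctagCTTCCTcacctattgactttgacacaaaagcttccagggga
F2r (chr13:95618467-95618716, minus strand): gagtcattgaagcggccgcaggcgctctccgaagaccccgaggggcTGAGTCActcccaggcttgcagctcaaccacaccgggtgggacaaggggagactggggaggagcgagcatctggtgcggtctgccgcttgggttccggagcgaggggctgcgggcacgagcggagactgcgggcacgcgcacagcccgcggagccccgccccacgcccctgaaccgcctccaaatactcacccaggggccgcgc
Procr (chr2:155750967-155751216, plus strand): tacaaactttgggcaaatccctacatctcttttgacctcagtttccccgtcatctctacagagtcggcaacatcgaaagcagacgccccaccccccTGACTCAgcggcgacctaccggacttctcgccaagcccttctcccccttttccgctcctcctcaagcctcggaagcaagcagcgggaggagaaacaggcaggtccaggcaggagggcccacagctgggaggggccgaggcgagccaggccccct
Pf4 (chr5:90772185-90772434, plus strand): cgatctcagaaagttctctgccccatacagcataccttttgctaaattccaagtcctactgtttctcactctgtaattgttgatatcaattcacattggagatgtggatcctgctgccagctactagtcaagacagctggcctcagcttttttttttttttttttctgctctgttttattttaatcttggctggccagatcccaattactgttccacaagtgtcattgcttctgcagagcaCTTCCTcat
The AP-1 letters lay at -146 and -135 from the *F3* start, at -204 in *F2r* and at -154 in *Procr*, and not in the *Tfpi*, *Pf4* or *F8* windows. Of all 32851 promoter windows of this length, 6.75% held them. The ETS letters were found in *Pf4* at -9 and in the downstream *Tfpi* window at -92 and -41, against 29.5% of all windows. The GATAA letters lay at -53 of the downstream *Tfpi* start (22.6% of all windows). The TATAA letters lay at -126 and -34 of the upstream *Tfpi* start and at -236 in the *F8* window, which is not shown (22.8% of all windows). The letters of a KLF motif (CACCC, 52.0% of windows) and of a GC box (CCGCCC, 32.7%) were also counted, and the KLF match at -130 in *F3* overlaps the AP-1 match at -135. These matches describe the letters and are no measure of binding.

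In aortic ECs of *Hmox2*+/+ mice *Vwf*, *Procr* and *F3* had the highest levels per transcript length and *F8* the lowest. In TPM the order of the means was *Vwf* (146 ± 46.4, SD, n = 3), *Procr* (132 ± 46.5), *F3* (55.8 ± 26.5), *Thbd* (42.9 ± 17.7), *Pf4* (41.8 ± 15.5), *Plat* (29.0 ± 9.02), *F2r* (22.3 ± 8.75), *Tfpi* (5.45 ± 2.004) and *F8* (1.22 ± 0.444). The ranges of *Vwf* and *Procr* overlapped, as did those of each neighbouring pair from *F3* to *F2r*, while *Procr* lay above *F3*, *F2r* above *Tfpi* and *Tfpi* above *F8* in all 3 libraries.

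The order was different in *Hmox2*+/+ heart, where *Tfpi* came first. Mean TPM was 29.0 ± 3.70 (SD, n = 4) for *Tfpi*, 12.1 ± 1.53 for *F3*, 9.31 ± 1.80 for *Vwf*, 7.90 ± 0.997 for *Thbd*, 6.30 ± 1.21 for *Pf4*, 6.30 ± 0.334 for *F2r*, 3.58 ± 0.835 for *Plat*, 1.34 ± 0.122 for *Procr* and 0.4397 ± 0.0994 for *F8*. Neighbours from *F3* to *F2r* overlapped in range, whereas *Tfpi* lay above *F3*, *F2r* above *Plat*, *Plat* above *Procr* and *Procr* above *F8* in all 4 libraries. Relative to *Hmox2*+/+ ECs, *Tfpi* was higher in heart by 3.50 on the log2 scale of normalised counts (edgeR quasi-likelihood test, Benjamini-Hochberg adjusted p = 1.54e-10). Of the other 8 genes 7 were lower, from -5.74 for *Procr* (adjusted p = 1.24e-11) and -3.16 for *Vwf* (1.22e-09) to -0.82 for *F2r* (2.79e-04), and *F8* did not pass (-0.53, adjusted p = 0.170). That 8 of 9 genes were called stands beside 65.8% of all 15938 genes tested in this contrast, 32.1% higher and 33.7% lower in heart.

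In ECs the 9 genes had higher mean levels in *Hmox2*-/- than in *Hmox2*+/+ mice, and 6 of them passed the test: *Tfpi*, *Plat*, *Pf4*, *F3*, *F2r* and *F8*. The largest fitted changes were those of *F8* (1.35 on the log2 scale), *Pf4* (1.30), *Tfpi* (1.29) and *F3* (1.21), 2.32- to 2.56-fold, and the smallest that of *Procr* (0.64), which like *Vwf* and *Thbd* did not pass. Over all 15301 genes tested 18.1% were called, 10% higher and 8.06% lower, by edgeR's quasi-likelihood test with Benjamini-Hochberg adjustment and a threshold of 0.05. With the 2-fold criterion of the study added, 4 of the 9 genes (*Pf4*, *F3*, *F8*, *Tfpi*) and 9.28% of all genes were differentially expressed, 5.39% of all genes being higher. In each of the 9 genes the 3 *Hmox2*-/- libraries lay above the 3 *Hmox2*+/+ libraries, as they did for 22% of all genes (40.7% were separate in either direction), and the exact permutation test gave 0.1 for each, the smallest two-sided p that 3 against 3 allows. The median log2 fold change of the 9 genes was 0.83, beside -0.02 for all genes tested. The count of 6 fell to 2 without EC *Hmox2*+/+ 1, *Hmox2*+/+ 2 or *Hmox2*-/- 3, to 3 without *Hmox2*-/- 2 and to 4 without *Hmox2*-/- 1, and rose to 9 without *Hmox2*+/+ 3. It was 1 (*Pf4*) with a term for *Ddx3y*. Leaving out the 2 *Hmox2*-/- libraries without *Ddx3y* kept only *Hmox2*-/- 1 in its group, too few to compare calls with those above. All 9 log2 fold changes were still above 0 in both fits. In the fit with *Hmox2*-/- 1 alone they ran from 0.37 (*Vwf*) to 1.54 (*F3*) and 1.77 (*Pf4*).

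In heart 5 genes were higher in *Hmox2*-/- mice (*Pf4*, *Plat*, *Procr*, *Vwf* and *Thbd*), 2 were lower (*F3* and *Tfpi*), and *F8* and *F2r* did not pass. *Pf4* had the largest difference, 1.18 on the log2 scale, and was the one of the 9 with a change of at least 2-fold. This criterion was met by 6.71% of all genes, and by 2.66% in the higher direction. *Pf4* was under 2-fold without heart *Hmox2*-/- 1 (0.88) and with a length and GC offset (0.68), where *Vwf* was at 1.15. Of 13816 genes tested 33.4% were called, 17.2% higher and 16.2% lower, so calls were frequent in this tissue. In 7 of the 9 genes the *Hmox2*-/- hearts lay wholly above or below the *Hmox2*+/+ hearts, beside 40.4% of all genes (20.6% with *Hmox2*-/- higher). The median log2 fold change of the 9 was 0.51 and that of all genes -0.01. The count of 7 was 6 without heart *Hmox2*+/+ 4 or *Hmox2*-/- 2, with *Tfpi* lost both times.

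The genotype difference was unlike in the 2 tissues for 3 genes, and each of the 3 was higher in ECs of *Hmox2*-/- mice and lower or near 0 in heart. The heart difference minus the EC difference was -1.68 for *F3* (edgeR quasi-likelihood test of the interaction, adjusted p = 0.00278), -1.63 for *Tfpi* (2.01e-04) and -0.67 for *F2r* (0.0378). Of 15938 genes tested 28.8% were called, 12.6% in this direction and 16.2% in the opposite one. For *Vwf* the difference between tissues was 0.12 (95% CI -0.41 to 0.64), for *Thbd* -0.10 (-0.61 to 0.41), for *Pf4* -0.09 (-0.91 to 0.74), for *Procr* 0.26 (-0.29 to 0.81), for *Plat* 0.08 (-0.40 to 0.56) and for *F8* -1.02 (-2.02 to -0.02, adjusted p = 0.116), none of which passed.

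**Figure D1:**
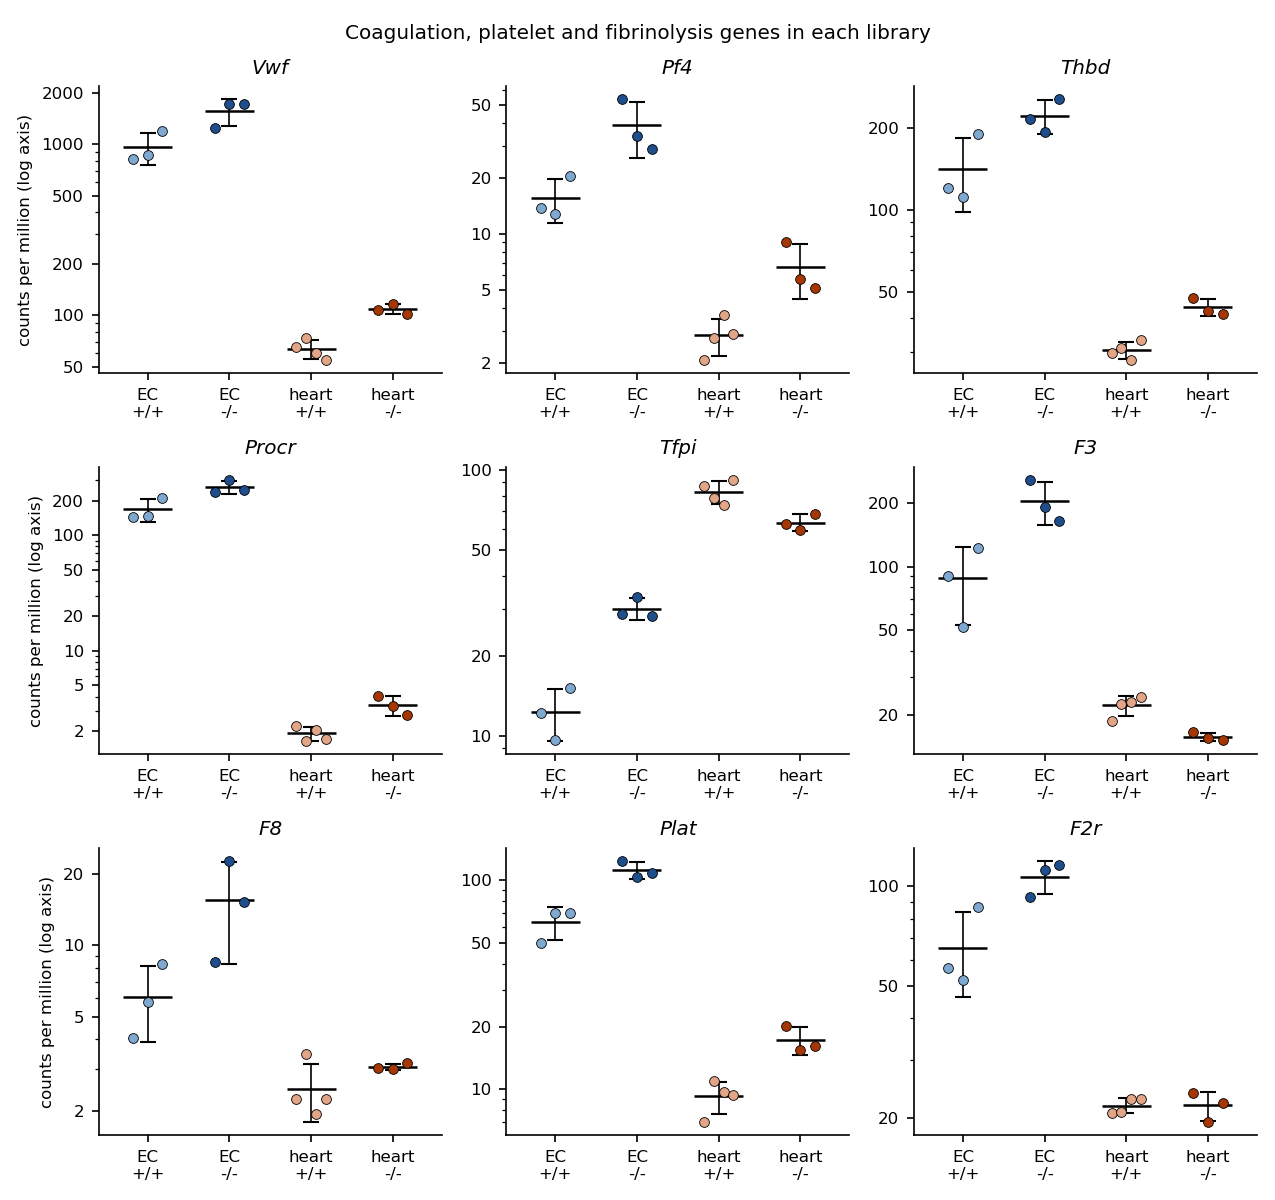
CPM of each gene on a log axis in aortic ECs and heart of *Hmox2*+/+ and *Hmox2*-/- mice, with 1 point per library and bars for mean ± SD, scaled separately within each tissue. *F3* and *Tfpi* were higher in *Hmox2*-/- ECs and lower in *Hmox2*-/- hearts, and the 2 high *F8* points in *Hmox2*-/- ECs were 22.8 and 15.2 CPM.

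**Figure D2:**
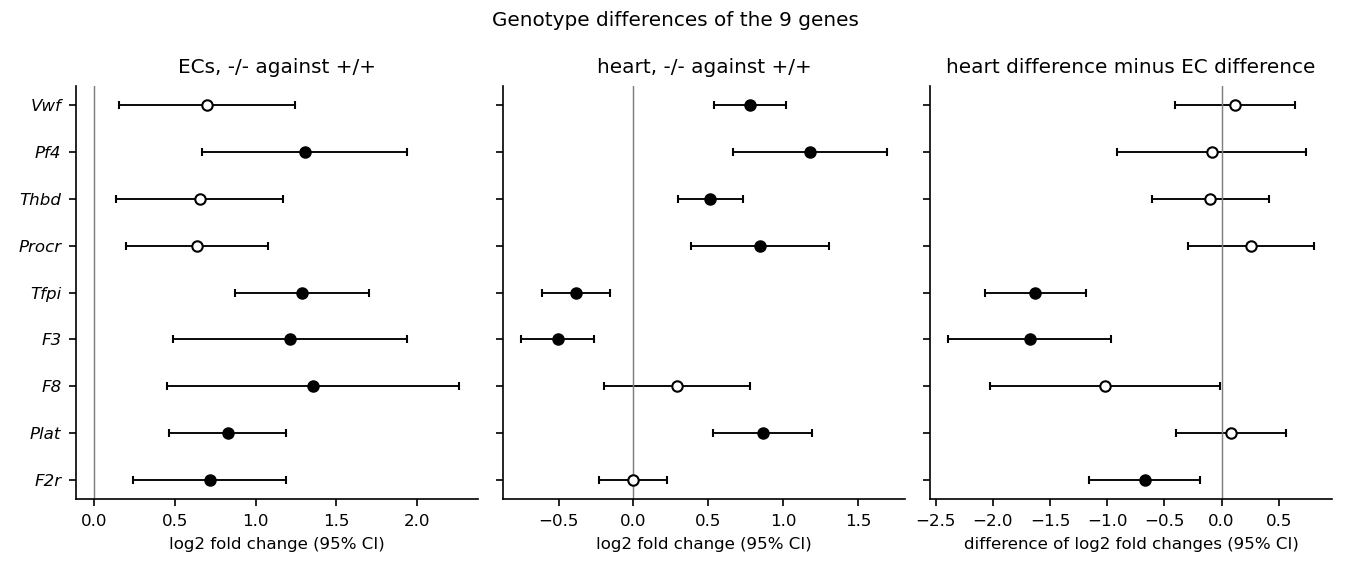
Log2 fold change of each gene between genotypes in ECs and in heart, and the difference between the tissues, each with its 95% confidence interval. Filled points passed at an adjusted p of at most 0.05, which were 6 genes in ECs, 7 in heart and 3 for the difference.

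*Vwf* encodes von Willebrand factor, which tethers platelets to the injured wall and carries factor VIII, and lies at chr6:125523737-125663642 (GRCm39, plus strand; ENSMUSG00000001930). In ECs it was 819, 861 and 1195 CPM in *Hmox2*+/+ and 1237, 1725 and 1713 CPM in *Hmox2*-/- libraries. The groups did not overlap, but *Hmox2*+/+ 3 and *Hmox2*-/- 1 were close. The log2 fold change was 0.70 (95% CI 0.16 to 1.25) and did not pass (edgeR, adjusted p = 0.0758), while it passed without *Hmox2*+/+ 3 (0.0335). In heart *Vwf* was 65.1, 73.6, 60.7 and 55.0 CPM in *Hmox2*+/+ and 108, 117 and 102 CPM in *Hmox2*-/- mice. All 3 *Hmox2*-/- hearts lay above the highest *Hmox2*+/+ heart, with a log2 fold change of 0.78 (0.54 to 1.02, adjusted p = 7.81e-04).

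*F8* encodes coagulation factor VIII, the cofactor that circulates bound to von Willebrand factor, and is X-linked (chrX:74216321-74426221, minus strand; ENSMUSG00000031196). Its levels in ECs were 4.06, 5.75 and 8.31 CPM in *Hmox2*+/+ and 8.501, 22.8 and 15.2 CPM in *Hmox2*-/- libraries. *Hmox2*-/- 1 was next to *Hmox2*+/+ 3, and the 2 high libraries are those without *Ddx3y*. The log2 fold change of 1.35 (0.45 to 2.26) passed narrowly (edgeR, adjusted p = 0.04998). The call was lost without *Hmox2*+/+ 1, *Hmox2*+/+ 2, *Hmox2*-/- 2 or *Hmox2*-/- 3 (adjusted p 0.114 to 0.145), and without both libraries that lack *Ddx3y* the log2 fold change was 0.49. In heart, where every library had *Ddx3y*, *F8* was 2.23, 3.46, 1.94 and 2.23 CPM in *Hmox2*+/+ and 3.03, 2.99 and 3.17 CPM in *Hmox2*-/- mice, overlapping groups with a log2 fold change of 0.29 (-0.20 to 0.78, adjusted p = 0.331).

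*F3* encodes tissue factor, the receptor that starts clotting, and its upstream sequence above held both AP-1 matches (chr3:121516610-121528820, plus strand; ENSMUSG00000028128). In ECs it was 90.5, 51.9 and 123 CPM in *Hmox2*+/+ and 257, 192 and 164 CPM in *Hmox2*-/- libraries. The *Hmox2*-/- libraries were higher without overlap, although the *Hmox2*+/+ libraries differed among themselves by more than 2-fold. *F3* rose by 1.21 on the log2 scale (0.49 to 1.93; edgeR, adjusted p = 0.0364), a call that was lost without any 1 of the libraries other than *Hmox2*+/+ 3 (0.0525 to 0.0962). In heart *F3* was 18.6, 22.5, 23.0 and 24.1 CPM in *Hmox2*+/+ and 16.5, 15.5 and 15.1 CPM in *Hmox2*-/- mice. Here the 3 *Hmox2*-/- hearts were the lowest, and *F3* fell by 0.51 on the log2 scale (95% CI -0.75 to -0.26, adjusted p = 0.00638).

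*Tfpi* encodes tissue factor pathway inhibitor, which blocks the complex that tissue factor starts (chr2:84263195-84307164, minus strand; ENSMUSG00000027082). It was 12.2, 9.63 and 15.1 CPM in *Hmox2*+/+ and 28.7, 33.4 and 28.2 CPM in *Hmox2*-/- ECs. The groups were well separated, with a rise of 1.29 on the log2 scale (0.87 to 1.70; edgeR, adjusted p = 0.00577) that passed whichever EC library was left out. In heart the direction was opposite, at 87.0, 78.3, 74.3 and 91.9 CPM in *Hmox2*+/+ and 62.7, 59.4 and 68.6 CPM in *Hmox2*-/- mice. The 3 *Hmox2*-/- hearts were the lowest, and *Tfpi* fell by 0.38 on the log2 scale (95% CI -0.61 to -0.16, adjusted p = 0.0162), which did not pass without heart *Hmox2*+/+ 4 (0.0524) or *Hmox2*-/- 2 (0.0840).

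The heart direction of *Tfpi* and the heart call of *F3* depended on the scale. On the deposited TPM, without scaling between libraries, the median log2 difference of all genes tested in heart was 0.26 in favour of *Hmox2*-/- mice, beside -0.01 with normalised counts, and 4479 genes of the heart were called higher and 448 lower, beside 2380 and 2238. On that scale *F3* was -0.17 (limma, adjusted p = 0.368) and *Tfpi* turned to 0.05 (adjusted p = 0.825), both below the median of all genes. *Tfpi* was 29.6, 30.97, 23.6 and 31.8 TPM in *Hmox2*+/+ and 28.2, 27.8 and 33.6 TPM in *Hmox2*-/- hearts, so its groups overlapped in TPM. The difference between tissues held on that scale for *F3* (-1.42, adjusted p = 0.00939) and *Tfpi* (-1.27, adjusted p = 0.00320). Over all 16 alternatives the heart call held in 9 for *Tfpi* and in 14 for *F3*. In edgeR *Tfpi* also did not pass with length-scaled TPM counts (adjusted p = 0.0674) or a length and GC offset (0.0526). With all 13 libraries in 1 fit neither *Tfpi* (0.0596) nor *F3* (0.130) passed in heart.

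*Thbd* encodes thrombomodulin, the endothelial receptor that turns thrombin towards activation of protein C (chr2:148216045-148250201, minus strand; ENSMUSG00000074743). In ECs it was 121, 112 and 190 CPM in *Hmox2*+/+ and 216, 193 and 255 CPM in *Hmox2*-/- libraries, with *Hmox2*+/+ 3 just below the lowest *Hmox2*-/- library. Its log2 fold change of 0.65 (0.14 to 1.17) did not pass (edgeR, adjusted p = 0.0797) and passed without *Hmox2*+/+ 3 (0.0125). In heart *Thbd* was 29.9, 31.1, 28.1 and 33.3 CPM in *Hmox2*+/+ and 47.4, 42.3 and 41.6 CPM in *Hmox2*-/- mice. The heart groups did not overlap, and *Thbd* rose by 0.51 on the log2 scale (0.30 to 0.73, adjusted p = 0.00356).

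*Procr* encodes the endothelial protein C receptor, which presents protein C to the complex of thrombin and thrombomodulin (chr2:155593031-155597397, plus strand; ENSMUSG00000027611). It was 144, 148 and 212 CPM in *Hmox2*+/+ and 237, 301 and 248 CPM in *Hmox2*-/- ECs. Again *Hmox2*+/+ 3 was the highest of its group without reaching the other, and the log2 fold change of 0.64 (0.20 to 1.08) missed the threshold (edgeR, adjusted p = 0.0538) unless that library was left out (0.0146). In heart its level was low, 2.23, 1.66, 2.06 and 1.73 CPM in *Hmox2*+/+ and 4.08, 3.30 and 2.75 CPM in *Hmox2*-/- mice, without overlap. *Procr* rose there by 0.85 on the log2 scale (0.38 to 1.31, adjusted p = 0.0114), from at most 54 counts in a *Hmox2*+/+ heart library.

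*F2r* encodes PAR1, the main thrombin receptor of ECs (chr13:95737382-95755177, minus strand; ENSMUSG00000048376). In ECs it was 57.0, 52.1 and 86.4 CPM in *Hmox2*+/+ and 93.0, 112 and 116 CPM in *Hmox2*-/- libraries. It rose by 0.72 on the log2 scale (0.24 to 1.19; edgeR, adjusted p = 0.0485), and the call held without *Hmox2*+/+ 3 and was lost without any other 1 library (0.0680 to 0.152). Heart levels were 20.8, 20.9, 22.9 and 22.8 CPM in *Hmox2*+/+ and 23.9, 19.5 and 22.3 CPM in *Hmox2*-/- mice. The heart groups overlapped fully, with a log2 fold change of -0.00 (95% CI -0.23 to 0.23, adjusted p = 0.995), and the difference between tissues passed in 4 of the 13 fits that left out 1 library (adjusted p 0.00113 to 0.104).

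*Plat* encodes tissue-type plasminogen activator, which starts clot removal by activating plasminogen (chr8:23247709-23272871, plus strand; ENSMUSG00000031538). In ECs it was 50.2, 69.7 and 69.5 CPM in *Hmox2*+/+ and 124, 104 and 108 CPM in *Hmox2*-/- libraries, with a wide gap between the groups. It rose by 0.83 on the log2 scale (0.46 to 1.19; edgeR, adjusted p = 0.0149), which was lost without *Hmox2*-/- 3 (0.0598). In heart *Plat* was 6.99, 10.9, 9.67 and 9.42 CPM in *Hmox2*+/+ and 20.2, 15.5 and 16.1 CPM in *Hmox2*-/- mice. The heart libraries were separate too, and the rise was of like size, 0.87 (0.53 to 1.196, adjusted p = 0.00225).

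*Pf4* encodes platelet factor 4, a chemokine of platelet granules that binds heparin (chr5:90918479-90922110, plus strand; ENSMUSG00000029373). In ECs it was 13.8, 12.9 and 20.6 CPM in *Hmox2*+/+ and 53.8, 33.9 and 28.9 CPM in *Hmox2*-/- libraries. *Hmox2*-/- 1 was the highest, the library that was lowest of its group for *Vwf*, *F8*, *Procr* and *F2r*. *Pf4* rose by 1.30 on the log2 scale (0.67 to 1.94; edgeR, adjusted p = 0.0202), a call lost without *Hmox2*+/+ 1 (0.0638) or *Hmox2*+/+ 2 (0.0554). In heart it was 2.08, 2.74, 3.66 and 2.87 CPM in *Hmox2*+/+ and 9.11, 5.72 and 5.09 CPM in *Hmox2*-/- mice. All *Hmox2*-/- hearts lay above the *Hmox2*+/+ hearts, and *Pf4* rose by 1.18 on the log2 scale (0.67 to 1.69, adjusted p = 0.00407).

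To part endothelial from platelet transcripts, the genes were set beside marker lists of the cell types that the samples could hold. The summed CPM of 12 endothelial markers lay at 2602 to 3762 in *Hmox2*+/+ ECs, below the 4635 to 5418 of *Hmox2*-/- ECs, and 574 to 686 against 707 to 751 in heart. In ECs 6 of the 12 passed higher (*Pecam1*, *Tie1*, *Tek*, *Cldn5*, *Esam*, *Ecscr*), *Kdr* passed lower and 5 did not pass. Over all genes in ECs 10% passed higher and 8.06% lower. In heart 3 of the 12 passed higher, 1 passed lower and 8 did not pass, beside 17.2% and 16.2% of all genes. The sums thus differed with genotype, but not each marker did. In bulk RNA a different number of cells of a type and a different amount of RNA per cell cannot be told apart.

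Per endothelial marker sum, *Vwf* was nearly the same in ECs of both genotypes. It was 31.5%, 30.9% and 31.8% of the sum in *Hmox2*+/+ and 26.7%, 31.8% and 34.7% in *Hmox2*-/- ECs, a ratio of 0.985 (exact permutation test, two-sided p = 1). *Thbd* (ratio 0.971), *Procr* (0.951), *F2r* (1.01) and *Plat* (1.08) also overlapped between genotypes on this scale, whereas *Tfpi* (1.497) did not, nor did *Pf4* (1.47). *F3* (1.46) and *F8* (1.496) overlapped despite ratios of that size. In heart, *Vwf* per endothelial sum ranged from 9.49 to 10.8% in *Hmox2*+/+ mice, below the 14.4 to 15.9% of *Hmox2*-/- mice (ratio 1.51, exact p = 0.0286, the smallest that 4 against 3 allows). *Procr* (1.53), *Plat* (1.64) and *Pf4* (2.03) were likewise separate and higher, *F3* (0.626) and *Tfpi* (0.674) separate and lower. The heart ratios of *Thbd* (1.26), *F8* (1.12) and *F2r* (0.877) overlapped. The share of all genes that separate on this ratio scale was not computed. On plain CPM it was 40.7% in ECs and 40.4% in heart. Over the 22 ratios tested, none passed after Benjamini-Hochberg adjustment (lowest adjusted p = 0.126 in these exact tests).

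The platelet markers were mixed beside *Pf4*. In ECs 6 of the 10 were tested and 2 passed, both higher, *Gp1ba* by 1.09 and *Clec1b* by 1.195 on the log2 scale, beside 1.30 for *Pf4*. The 10 platelet markers summed to 14.6 to 26.8 CPM in *Hmox2*+/+ and 25.8 to 31.8 CPM in *Hmox2*-/- ECs, and to 5.02 to 7.14 against 6.08 to 8.44 CPM in heart, overlapping in both tissues. *Gp1bb*, *Gp5*, *Gp6*, *Gp9* and *Treml1*, defining platelet genes, reached at most 0.649 CPM (*Gp5* in EC *Hmox2*+/+ 3) in any library. Of the 31-base words of *Gp1bb* 91.5% also occur in other genes, so its own level is less certain. *Ppbp*, the chemokine stored with platelet factor 4, was 2.10 ± 1.88 TPM (SD, n = 3) in *Hmox2*+/+ and 1.12 ± 0.439 TPM in *Hmox2*-/- ECs, where *Pf4* was 41.8 ± 15.5 and 100.5 ± 40.1 TPM. Its EC difference of -0.84 on the log2 scale of normalised counts did not pass (edgeR, adjusted p = 0.346), and neither did *Itga2b*, the integrin subunit of platelets (-0.50, adjusted p = 0.332). In heart *Ppbp* rose by 2.82 (adjusted p = 0.00565), from at most 0.142 CPM in *Hmox2*+/+ to 0.382, 0.665 and 1.35 CPM in *Hmox2*-/- hearts. As a share of the platelet sum *Pf4* ranged from 76.9 to 93.0% in *Hmox2*+/+ ECs, against 104 to 208% in *Hmox2*-/- ECs (ratio 1.54, exact p = 0.1). In heart this share overlapped, at 29.2 to 61.1% in *Hmox2*+/+ samples against 60.3 to 149.8% in *Hmox2*-/- samples (exact p = 0.0571).

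Macrophage markers as a sum moved in the same direction as *Pf4*. Their 12 genes summed to 516 to 692 CPM in *Hmox2*+/+ and 881 to 1370 CPM in *Hmox2*-/- ECs, and to 160 to 234 against 256 to 427 CPM in heart, without overlap. In each tissue 5 of the 12 passed higher, none passed lower and 7 did not pass. Over all genes 10% passed higher in ECs and 17.2% in heart. Those passing were *Lyz2* and *Cd68* in both, *Cd163*, *Mrc1* and *Adgre1* in ECs and the complement genes *C1qa*, *C1qb* and *C1qc* in heart. Of the 12, 2 had a log2 fold change below 0 in ECs and 4 in heart. Per macrophage sum *Pf4* ranged from 2.11 to 2.98% in *Hmox2*+/+ ECs, against 2.90 to 3.92% in *Hmox2*-/- ECs (ratio 1.38, overlapping, exact p = 0.2), and 1.30 to 1.77% against 1.99 to 2.13% in heart (ratio 1.37, separate, exact p = 0.0571). The part of macrophage content in the *Pf4* difference was not tested.

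The genes whose deviations from their group means were most like those of *Pf4* were *Txndc17* (Pearson r = 0.96), *Ldaf1* (0.94), *C1qc* (0.93), *Ifngr1* (0.92) and *C1qa* (0.92), among 13351 genes over 13 libraries. *F3* was at r = 0.71 to *Pf4*, *Plat* at 0.65, *Procr* at 0.39 and *Thbd* at 0.36. Lower values were those of *F2r* (0.34), *Tfpi* (0.12), *Vwf* (-0.10) and *F8* (-0.20). The platelet markers tested in both tissues were at 0.35 (*Clec1b*), 0.24 (*Ppbp*), -0.11 (*Itga2b*) and -0.37 (*Gp1ba*). *Vwf* was most like *Osmr* (0.90), *Mmrn2* (0.90), *Lratd2* (0.89), *C1qtnf1* (0.89) and *Gpc3* (0.89), and *F8* was next among the 9 genes at 0.85. *Thbd* was most like *Dlgap4* (0.91), *Pdlim5* (0.90), *C1s1* (0.89), *Mertk* (0.89) and *Bcam* (0.88). These values describe libraries that share depth and composition, and carry no test.

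**Figure D3:**
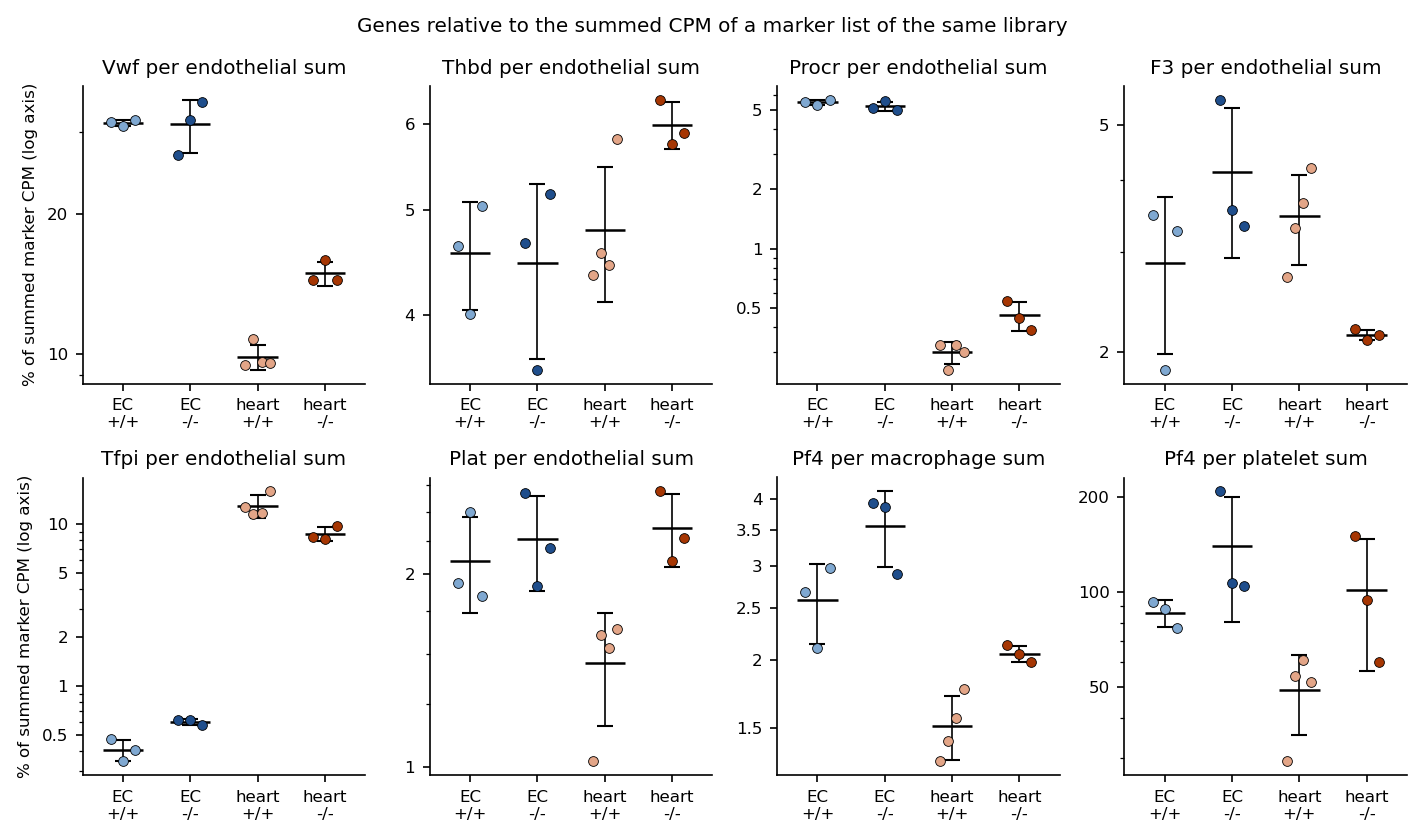
Each gene as a percentage of the summed CPM of a marker list in the same library (log axis), with 1 point per library and bars for mean ± SD. In ECs the ratios of *Vwf*, *Thbd*, *Procr* and *Plat* to endothelial markers overlapped between genotypes, while in heart those of *Vwf*, *Procr* and *Plat* were separate and higher in *Hmox2*-/- mice. The heart ratio of *Thbd* overlapped, and those of *F3* and *Tfpi* were separate and lower.

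Markers of other cell types also differed between the EC groups. Cardiomyocyte markers summed to 113 to 454 CPM in *Hmox2*+/+ and 5.49 to 8.35 CPM in *Hmox2*-/- ECs, mesothelial markers to 27.5 to 140 against 4.90 to 6.14, and fibroblast markers to 2250 to 3927 against 4756 to 5741. Lymphatic endothelial markers summed to 38.7 to 54.1 CPM in *Hmox2*+/+ and 81.4 to 110 in *Hmox2*-/- ECs and 104 to 144 CPM against 68.7 to 100.4 CPM in heart. Although that heart sum was lower, 2 of its 4 genes passed higher and 1 lower, with a median log2 fold change of 0.42. Over all genes in heart 17.2% passed higher and 16.2% lower. Smooth muscle markers were 3288 to 6428 CPM in *Hmox2*+/+ and 1060 to 3632 CPM in *Hmox2*-/- ECs, adipocyte markers 3016 to 4985 against 3497 to 4204 and lymphocyte markers 10.6 to 34.7 against 10.3 to 17.2, all 3 overlapping. In heart, erythroid markers were 183 to 341 CPM in *Hmox2*+/+ and 888 to 1456 CPM in *Hmox2*-/- mice. How far these differences enter those of the 9 genes was not tested.

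**Figure D4:**
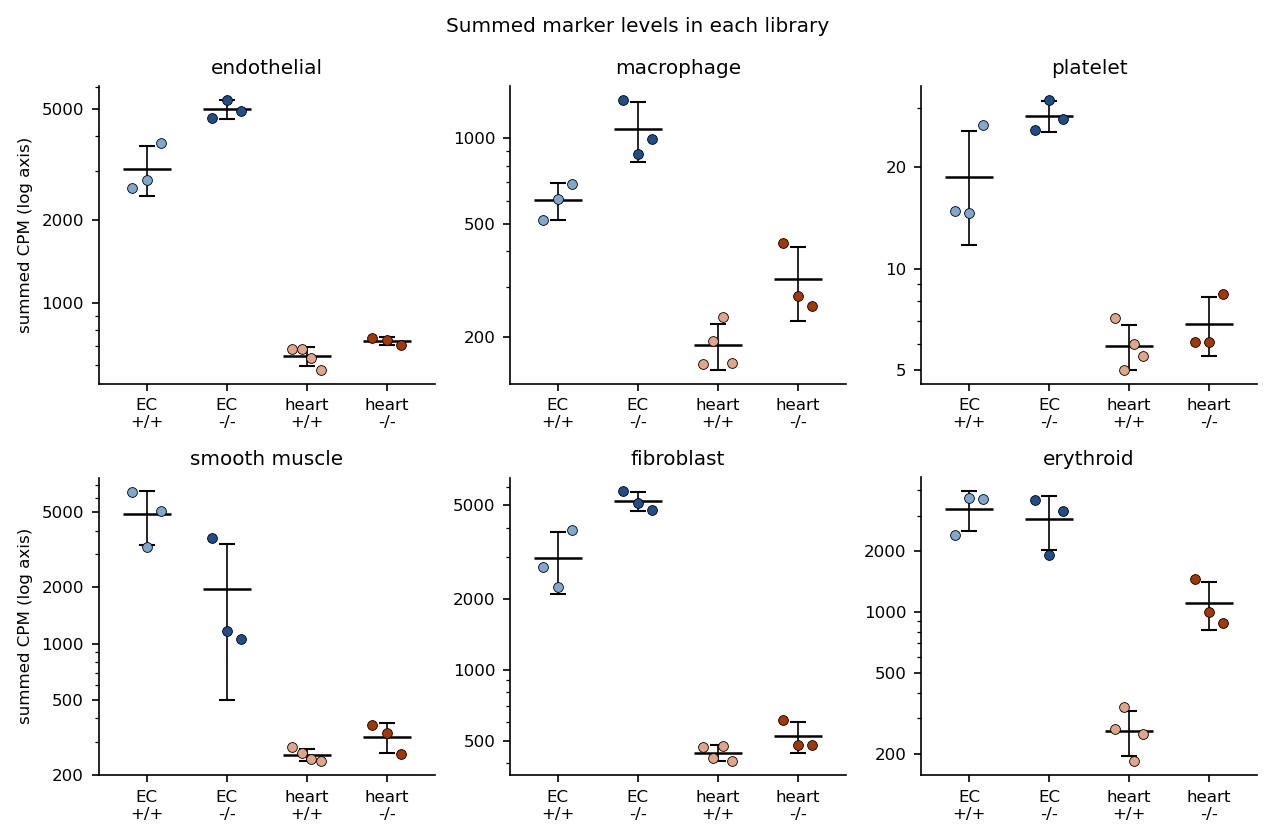
Summed CPM of marker lists (log axis) in each library, with bars for mean ± SD, scaled within each tissue. Endothelial, macrophage and fibroblast sums were higher in all *Hmox2*-/- EC libraries, platelet sums overlapped, and erythroid sums were higher in all *Hmox2*-/- hearts.

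The other genes of clotting and its control were taken from 6 lists of 59 genes, of which 36 were tested in ECs. There 9 were higher and 1 was lower in *Hmox2*-/- mice, beside 10% and 8.06% of all genes, with a median of 0.08 beside -0.02 for all genes. Among coagulation factors *F13a1*, the clot-stabilising factor XIII subunit also made by macrophages, rose by 0.81 on the log2 scale (edgeR, adjusted p = 0.0274). Among anticoagulants *Pros1*, encoding the cofactor protein S, rose by 0.61 (0.0334) and *Tfpi2*, a relative of *Tfpi*, by 1.42 (0.0191). *F2rl1*, encoding PAR2, rose by 1.27 (0.0424). None of the 7 fibrinolysis genes tested passed.

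Of 8 genes of endothelial hemostasis tested in ECs 3 rose. They were *Mmrn1*, encoding multimerin 1, by 2.01 on the log2 scale (edgeR, adjusted p = 0.0130), *Nos3*, the endothelial nitric oxide synthase, by 0.92 (0.0183), and *Selp*, encoding P-selectin, by 0.64 (0.0319). *Nt5e*, encoding CD73, which forms adenosine from AMP, went the other way and fell by 1.97 (0.00540), from 83.5, 91.2 and 158 CPM to 31.3, 22.5 and 30.8 CPM. Of 10 platelet and megakaryocyte genes *Gp1ba*, the receptor subunit that binds von Willebrand factor, rose by 1.09 (0.0348) and *Clec1b*, encoding the podoplanin receptor CLEC-2, by 1.195 (0.00737). With a term for *Ddx3y* 0 of these genes passed. Without 1 library at a time the count was 5 (*Hmox2*+/+ 1), 6 (*Hmox2*+/+ 2), 10 (*Hmox2*+/+ 3), 6 (*Hmox2*-/- 1), 3 (*Hmox2*-/- 2) and 2 (*Hmox2*-/- 3). In these 6 fits *Nt5e* and *Clec1b* passed 6 times, *Mmrn1* 5 times, *Nos3* and *Tfpi2* 3 times, *Gp1ba* 2 times, and *F13a1*, *Pros1*, *F2rl1* and *Selp* 1 time each.

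In heart 28 of the 59 genes were tested, and 8 were higher and 3 lower in *Hmox2*-/- mice, beside 17.2% and 16.2% of all genes, a tissue in which 33.4% of genes were called in either direction, with a median of 0.15 beside -0.01 for all genes. *F5*, encoding factor V, rose by 1.99 on the log2 scale (edgeR, adjusted p = 0.0152), from at most 0.190 CPM in *Hmox2*+/+ hearts, and *F13a1* by 0.46 (0.0370), with overlapping libraries. In fibrinolysis *Anxa2* and *S100a10*, whose products form a plasminogen-binding complex, rose by 0.82 (0.00164) and 0.81 (0.00823).

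Among endothelial genes in heart, *Mmrn1* rose by 0.75 on the log2 scale (edgeR, adjusted p = 0.0132), *Ptgis*, the prostacyclin synthase, by 0.93 (0.00596) and *Entpd1*, the ectonucleotidase CD39, by 0.54 (0.00412). *Mmrn2* fell by 0.40 (0.0146) and *Nt5e* by 0.33 (0.0438), and *Ppbp* was the 1 platelet gene to pass. The heart call of *Nt5e* held in 5 of 16 alternatives and in 2 of the 7 fits without 1 library, where its adjusted p was 0.0185 to 0.142, and that of *F13a1* likewise in 2 of 7 (0.0129 to 0.0995). Factors made in the liver were not tested for low counts: *F2*, *F9*, *F11*, *F12*, *Fga*, *Fgb*, *Fgg*, *Plg* and *Proc* were at most 0.329 CPM in any library of either tissue.

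**Figure D5:**
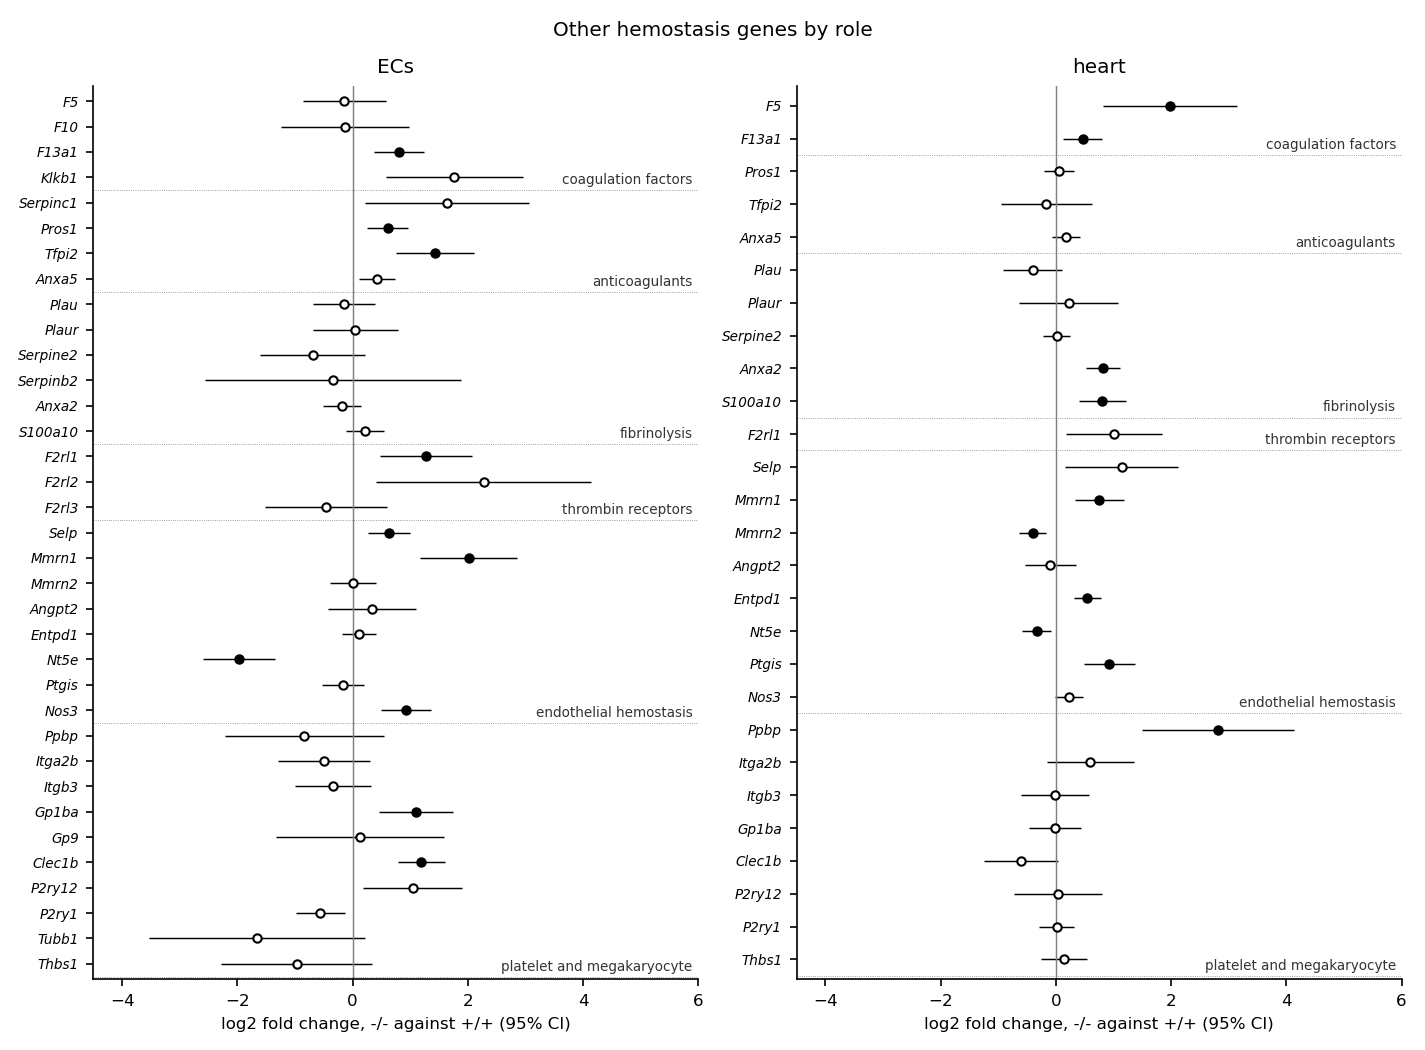
Log2 fold change between genotypes, with 95% confidence interval, of listed hemostasis genes tested in ECs and in heart, grouped by role, without 1 gene that is not reported here. Filled points passed at an adjusted p of at most 0.05. *Mmrn1* was higher in both tissues, at 2.01 in ECs and 0.75 in heart, and *Nt5e* had the lowest value in ECs, -1.97.

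The deposited values are per transcript, which allows a look at isoforms. In heart *Tfpi-201* held 16.0%, 26.0%, 27.0% and 24.5% of the *Tfpi* TPM in *Hmox2*+/+ and 40.2%, 37.3% and 34.7% in *Hmox2*-/- mice, and *Tfpi-210* 14.8%, 13.1%, 18.3% and 18.2% against 8.29%, 6.37% and 9.09%. *Tfpi-202* was also separate, at 2.20 to 4.14% against 4.61 to 8.59%. The exact permutation p was 0.0286 for each, the smallest possible, and 0.267 after adjustment over 28 transcript shares, so none passed. In ECs the share of *Tfpi-201* overlapped between genotypes, with 30.2 to 40.1% in *Hmox2*+/+ samples against 21.1 to 40.5% without *Hmox2*.

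The other genes were mostly read as 1 isoform or did not separate by genotype. *F3-201* held at least 96.4% of the *F3* TPM in each library, *Pf4-201* at least 95.8%, *Plat-201* at least 98.2% and *F2r* has 1 listed transcript. The nonsense-mediated decay isoform *Vwf-210* took 19.98 to 23.2% of *Vwf* TPM in *Hmox2*+/+ and 22.6 to 40.2% in *Hmox2*-/- ECs, and 15.4 to 31.8% against 20.2 to 47.8% in heart, overlapping in both. Shares of isoforms are estimates of the pseudoalignment and were not resolved further.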

How the data were processed

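RNA of aortic ECs and whole heart was sequenced as oligo-dT selected, directional libraries (100-base paired reads). The authors pseudoaligned reads with kallisto 0.44.0 at default settings, which does not use strand, to GENCODE M32 (GRCm39) per their methods, and deposited estimated counts per transcript. The deposited TPM values are the same estimates, made by the authors per transcript length and scaled to an equal total in every library.

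Transcript identifiers were matched without version to GENCODE M39 (GRCm39). Of 118489 transcripts 115140 (97.2%) matched, and the rest held 0.755 to 1.01% of counts. Estimated counts were summed per gene, rounded to whole numbers, filtered with filterByExpr (minimum count 10) and scaled by TMM separately in each tissue, so CPM of ECs and heart are on separate scales. Genotype was tested per tissue with edgeR 4.0.16 (glmQLFit and glmQLFTest, R 4.3.3), and the tissue contrast and the interaction in 1 fit of 13 libraries. Adjusted p-values were taken over all genes tested. Exact permutation tests are two-sided. They used log2(CPM + 0.5) for single genes, the log2 ratio for ratios to marker sums and the untransformed percentage for transcript shares. Likeness is Pearson's r of log2 CPM (prior count 2) after subtracting group means. The fits were tested on simulated data.

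The 9 genes, the pathway and marker lists and the tests were chosen with earlier results of these data known. All 9 genes were named, with pathway genes that passed and list genes that bear on *Pf4*. Alternatives were DESeq2 1.42.0, other scalings and filters, a replicate block, a *Ddx3y* term (libraries under 10 CPM against the rest), leaving out each library, and, chosen after seeing the data, the deposited TPM as log2(TPM + 0.5) in limma 3.58.1 and leaving out both EC *Hmox2*-/- libraries without *Ddx3y*. Promoter windows were from RefSeq (GRCm38.p6). No entry was matched for *Vwf*, *Thbd* and *Plat*, so their upstream sequences were not searched. The values of 1 listed pathway gene are not reported here, although the counts of its list include it.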

Additional observations from a re-analysis of the deposited data

Results flagged for a closer look

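For 3 of the 9 genes the test of the difference between tissues passed (edgeR quasi-likelihood test of the interaction), beside 28.8% of all 15938 genes. The genotype difference in heart minus that in ECs was -1.68 on the log2 scale for *F3*, -1.63 for *Tfpi* and -0.67 for *F2r*. *F3* and *Tfpi* passed this test under all 23 alternatives tried, and *F2r* under 10 of 23.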

How the results depend on the processing

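Of 702 alternative values of single genes, 595 kept direction and side of the threshold, 56 lost the call, 22 gained it and 29 changed sign. The causes were not tested. In ECs the count of the 9 genes called, 6, became 1 with a *Ddx3y* term and 3 with deposited TPM. It was 9 both with DESeq2 and in the fit of all 13 libraries, where *Vwf*, *Thbd* and *Procr* passed too (adjusted p 0.0074, 0.028 and 0.011 with DESeq2). The pathway count of 10 became 16 with DESeq2, 0 with the *Ddx3y* term and 3 with deposited TPM. Counts without both *Hmox2*-/- libraries lacking *Ddx3y* are not given, because 1 *Hmox2*-/- library was left. Leaving out each library gave 2 to 9 of the 9 genes and 2 to 10 pathway genes in ECs.

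Same-numbered libraries of the genotypes correlated at 0.0964 to 0.194 in ECs and -0.0316 to 0.0746 in heart. Libraries of unlike number correlated at -0.204 to 0.114 in ECs and -0.108 to 0.0569 in heart. The numbers were not taken as pairs in the main fits. With the replicate block the heart pathway count went from 11 to 6, and in heart *Tfpi* (adjusted p = 0.0768) and *Procr* (0.0581) no longer passed in edgeR. In ECs *Thbd* passed with the block (edgeR, adjusted p = 0.0280), and *Vwf* (0.0772) and *Procr* (0.0584) still did not.

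Changes of sign were as follows, on the log2 scale. In heart *Tfpi* was 0.046 with deposited TPM. *F2r* in heart was 0.014 without a filter, 0.093 with a length and GC offset, 0.0023 in the fit of all 13 libraries, 0.013 with the replicate block, 0.30 with deposited TPM and -0.067 to 0.077 with each library left out. The difference between tissues was 0.13 for *Thbd* and 0.20 for *Pf4* with deposited TPM, and -0.20 for *Procr* with the length and GC offset. For *Plat* it was -0.017 with upper-quartile scaling, -0.057 with the length and GC offset, -0.074 with the *Ddx3y* term and -0.071 without the libraries lacking *Ddx3y*. With each library left out it was -0.068 to 0.23 for *Vwf*, -0.37 to 0.046 for *Thbd*, -0.37 to 0.22 for *Pf4* and -0.039 to 0.23 for *Plat*. None of these tissue differences passed. The heart fit with a *Ddx3y* term was not run, because all hearts were over 10 CPM.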
